A study of Mus musculus with 6 samples.

Results

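The genes described are 10 genes of the endoplasmic reticulum (ER) stress response and the integrated stress response, *Atf4*, *Ddit3*, *Hspa5*, *Xbp1*, *Trib3*, *Asns*, *Chac1*, *Herpud1*, *Sesn2* and *Gdf15*. They were found by gene symbol, each symbol matched 1 of the 47729 genes of the deposited tables, and all 10 passed the filter on low counts, which left 17668 genes. Their RNA was measured in brown adipose tissue (BAT) of male wild-type C57BL/6J mice, fed from 6 to 10 weeks of age. Of 6 mice, 3 received a high-fat diet (HFD, with 45% of calories from fat) and 3 the standard rodent diet that served as low-fat diet (LFD). The mice of each diet were those with the greatest, the medium and the least fat mass, and the tissue was the right part of the interscapular depot, sequenced whole, 1 library per mouse. In such bulk tissue, fewer cells of a type and less RNA per cell cannot be told apart.

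Cells slow protein synthesis and switch on a common set of genes when unfolded proteins gather in the ER or when amino acids run short. The kinases that sense these states phosphorylate the translation factor eIF2, which lowers translation in general and favours that of ATF4. The ER itself is watched by PERK, by IRE1, which splices the *Xbp1* transcript into the form that encodes an active factor, and by ATF6, which raises chaperones such as the one encoded by *Hspa5*. *Gdf15* and *Fgf21* are known as hormones that stressed tissues release. Much of the pathway works through translation, splicing and phosphorylation, which gene-level RNA counts do not show.

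The promoters of 4 genes are shown because they hold a motif of one of these factors. The RefSeq promoter windows (build GRCm38.p6, 250 bases before to 50 bases after the start) were matched by symbol for all 10 genes. The ERSE, to which ATF6 binds together with NF-Y, was searched by its usual consensus, the UPRE as TGACGTGG, and elements of the C/EBP-ATF kind as TGATGNAAN and as TTGCATCA, all on both strands; the last motif, read on the other strand, is also a match to the third. Of 32851 promoter windows, 0.119% held the ERSE, 0.676% the UPRE, 3.95% TGATGNAAN and 0.895% TTGCATCA. Among the 10 genes, the ERSE matched *Hspa5*, TTGCATCA matched *Chac1* and *Herpud1*, and TGATGNAAN matched these 2 genes, *Asns* and *Trib3*. The match in *Trib3* lies 14 bases after the start. The UPRE matched none of the 11 windows of the 10 genes, 2 of which belong to *Gdf15*. Capitals mark the motif, and each run is written 5′ to 3′ on the strand of the gene.
Hspa5, chr2:34772020-34772049, plus strand: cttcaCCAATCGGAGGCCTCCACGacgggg
Asns, chr6:7693213-7693242, minus strand: cccagccacaTGATGAAACttcccgcacgc
Chac1, chr2:119351012-119351111, plus strand: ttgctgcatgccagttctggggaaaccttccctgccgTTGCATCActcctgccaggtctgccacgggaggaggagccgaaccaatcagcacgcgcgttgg
Herpud1, chr8:94386279-94386378, plus strand: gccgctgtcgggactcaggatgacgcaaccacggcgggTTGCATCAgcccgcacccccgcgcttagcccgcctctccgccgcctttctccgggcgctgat
The motif begins 65 bases upstream of the RefSeq start in *Hspa5*, 23 in *Asns*, 193 in *Chac1* and 112 in *Herpud1*. GENCODE M21 lets *Hspa5* and *Asns* begin earlier, so that both short runs lie inside the gene in that annotation. A match of letters is a description and no evidence of binding.

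The libraries held 17156991 to 21603487 rounded counts each. Genes encoded by the mitochondrial genome took 8.50% to 22.7% of the counts under HFD and 3.87% to 13.8% under LFD, which lowers the TPM of all other genes in the mice with high shares. In what follows, the values of a diet are given in the order of replicates 1, 2 and 3, and replicates have no order in time or dose. The brown fat gene *Ucp1* was found in every mouse, at 2728, 4021 and 796 TPM under HFD and 443, 11.03 and 76.0 TPM under LFD. The libraries of the LFD-fed mice stood apart in the transcripts of skeletal muscle. The 20 muscle markers summed to 154, 433 and 43.6 TPM under HFD and 6540, 16034 and 2331 TPM under LFD, and the median log2 fold change (HFD over LFD) of the list was -6.05. The list of 13 brown adipocyte markers also holds genes of fat cells in general, such as *Fabp4*. Its median log2 fold change was 1.298, with 9 positive and 4 negative. By the edgeR rule given below, 0 of the 13 were called, as were 0 of all 17668 tested genes. In the same test 2 of the 13 had an unadjusted p under 0.05, both positive, beside 3.86% of all tested genes. The lowest were *Adipoq* (-1.19) and *Plin1* (-0.78), and the highest *Ucp1* (3.67) and *Cidea* (2.19). The 13 genes summed to 6276 to 13614 TPM under HFD and 3643 to 13295 TPM under LFD. The fat cell gene *Fabp4*, with a log2 fold change of -0.35, gave the most to this sum. Of the endothelial markers 8 of 10 and of the fibroblast markers 1 of 10 had a positive fold change.

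Levels differed widely among the 10 genes. TPM, the share of all transcripts with gene length taken into account, is the scale on which genes can be set side by side. *Hspa5* was highest with a mean of 434 TPM over the 6 mice, and its lowest mouse lay above every mouse of *Xbp1*, the next gene with 129 TPM. *Xbp1* was above *Atf4* in 6 of 6 mice, although their ranges met. *Atf4* (69.3 TPM) and *Herpud1* (68.8 TPM) lay next to each other, with *Atf4* the higher in 4 of 6 mice. They were followed by *Asns* (44.5 TPM) and *Ddit3* (21.2 TPM), with *Asns* the higher in 5 of 6 mice. *Sesn2* (5.86 TPM) lay below *Ddit3* in every mouse. The last 4 genes, *Sesn2*, *Gdf15* (4.55 TPM), *Chac1* (3.54 TPM) and *Trib3* (2.25 TPM), overlapped with their neighbours in this order.

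**Figure D1:**
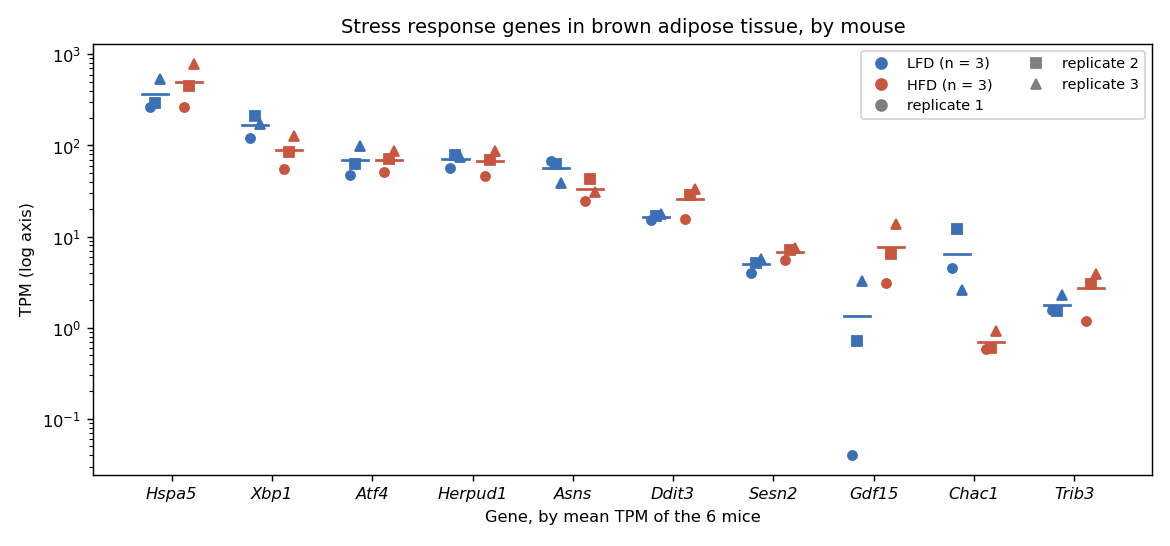
TPM of the 10 genes (log axis) in each mouse, LFD in blue and HFD in red, with the shape of a point giving the replicate number and a line the mean of 3 mice. The 3 HFD values of *Chac1* (0.58 to 0.92) lie below its 3 LFD values (2.57 to 12.0), and the diets overlap in the other 9 genes.

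The study asked how HFD feeding alters the transcripts of BAT, and the 10 genes were compared between the diets. A gene was called where edgeR's quasi-likelihood test gave an adjusted p below 0.01 with a log2 fold change beyond 1.5 in size. By this rule 0 of the 10 genes were called, as were 0 of all 17668 tested genes (0%). At an unadjusted p under 0.05 there were 5 of the 10 genes, beside 10.5% of all tested genes. They were 3 genes with a positive fold change (*Ddit3*, *Sesn2*, *Gdf15*), beside 3.86%, and 2 with a negative one (*Chac1*, *Xbp1*), beside 6.62%. With the replicate number as a block in the model there were again 5, beside 17.5%, and 0 of the 10 had an adjusted p under 0.05, beside 1.04%. DESeq2 with its default settings called 1 of the 10, *Chac1*, and 2.06% of the genes for which it gave an adjusted p. limma on log2(TPM + 1) called 1 of all tested genes and 0 of the 10. The log2 fold change was positive for 7 and negative for 3 of the 10 genes, where 45.6% of all tested genes were positive. The median was 0.45, and that of all tested genes -0.05.

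The diets did not overlap for 6 of the 10 genes in log2 CPM, the log2 share of counts scaled by TMM, where 15.9% of all tested genes did not. The HFD-fed mice were all above the LFD-fed mice for *Ddit3*, *Hspa5*, *Sesn2* and *Gdf15*, which is 4 of 10 against 6.72% of all tested genes. They were all below for *Xbp1* and *Chac1*, which is 2 of 10 against 9.23%. This count rests on the scaling between mice. In TPM as deposited it was 0 above (1.65% of all tested genes) and 1 below (11.6%). With mitochondrially encoded genes left out of TPM, the HFD-fed mice were all above for *Ddit3*, *Sesn2* and *Gdf15*. They were then all below for *Xbp1* and *Chac1*. Some gaps were small, as between 19.6 TPM (lowest HFD) and 18.8 TPM (highest LFD) for *Ddit3*. For *Xbp1* the highest HFD value was 139 and the lowest LFD value 141 TPM. The share over all tested genes was not computed on this scale. The median log2 fold change of all tested genes was -0.18 on the log2(TPM + 1) scale, so that a value on this scale is best read against that median.

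**Figure D2:**
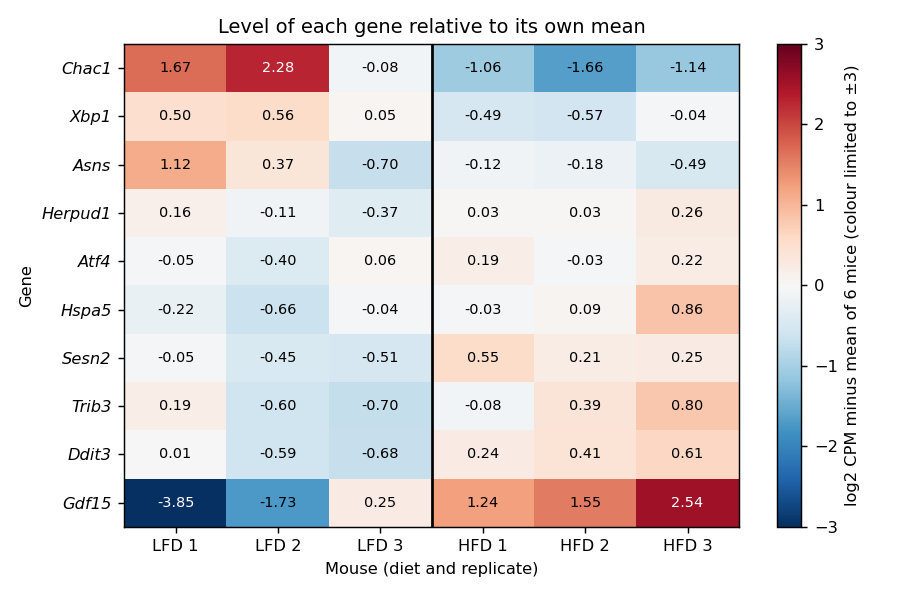
Log2 CPM of each gene in each mouse, minus the mean of that gene over the 6 mice; red is above and blue below the mean, and the line parts the diets. *Chac1* at the top runs from 2.28 in LFD replicate 2 to -1.66 in HFD replicate 2, and *Gdf15* at the bottom runs from -3.85 in LFD replicate 1 to 2.54 in HFD replicate 3.

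*Hspa5* (ENSMUSG00000026864, chromosome 2 from 34771970 to 34777547) encodes BiP, the main Hsp70 chaperone of the ER lumen. Its level was 264, 447 and 792 TPM under HFD against 267, 293 and 541 TPM under LFD. HFD replicate 3 was the highest mouse, and HFD replicate 1 and LFD replicate 1 had nearly the same TPM. edgeR gave a log2 fold change of 0.64 with a standard error of 0.38 (adjusted p = 0.635), which was 0.32 without HFD replicate 3. In log2 CPM, the lowest HFD value was 9.09 and the highest LFD value 9.08, so the diets were barely apart.

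*Herpud1* (ENSMUSG00000031770, chromosome 8 from 94386438 to 94395377) encodes a membrane protein of ER-associated degradation. Its level was 46.2, 69.3 and 86.3 TPM under HFD against 56.8, 79.4 and 74.6 TPM under LFD. The diets overlapped on both scales. In edgeR the log2 fold change came to 0.20 with a standard error of 0.22 (adjusted p = 0.841), and it was 0.12 without HFD replicate 3, 0.34 without LFD replicate 1 and 0.08 without LFD replicate 3. On the log2(TPM + 1) scale it was -0.09, so its direction turned with the scaling. *Herpud1* overlaps the antisense gene *Gm15890*, which had 1 to 7 counts per mouse.

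*Xbp1* (ENSMUSG00000020484, chromosome 11 from 5520659 to 5525893) encodes the factor that IRE1 activates by splicing. Its level was 55.5, 85.6 and 126 TPM under HFD against 120, 210 and 173 TPM under LFD, with means of 89.1 ± 35.6 and 168 ± 45.1 TPM (SD, n = 3 each). HFD replicate 3 was above LFD replicate 1 in TPM, while in log2 CPM all HFD-fed mice (6.69 to 7.22) were below all LFD-fed mice (7.31 to 7.82). edgeR's estimate on the log2 scale was -0.74 with a standard error of 0.27 (adjusted p = 0.414), and -0.92 to -0.64 with a mouse left out. The counts do not part spliced from unspliced *Xbp1*. Plasma cells express much *Xbp1*, and the 11 B and plasma cell markers found in the tables summed to 42.2 to 59.7 TPM under HFD and 69.1, 450.5 and 92.7 TPM under LFD. Of the 11, 7 passed the low-count filter, 4 with a positive and 3 with a negative fold change, 1 of the 11 was listed at 0 in some mice and none in every mouse. Their part in the level of *Xbp1* was not tested.

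*Atf4* (ENSMUSG00000042406, chromosome 15 from 80255184 to 80257541) encodes the factor at the centre of the integrated stress response, which is controlled mainly in translation. Its level was 50.6, 70.5 and 86.4 TPM under HFD against 47.0, 62.8 and 98.6 TPM under LFD. The means were 69.2 ± 18.0 and 69.5 ± 26.4 TPM (SD, n = 3 each), a difference far smaller than the spread between mice of a diet. The log2 estimate of edgeR was 0.25 with a standard error of 0.22 (adjusted p = 0.790), and 0.12 without LFD replicate 2. The HFD-fed mouse was higher in log2 CPM in 3 of 3 same-numbered pairs and in TPM in 2 of 3. Pairing by number was read from these same data, since the labels do not say what a number marks.

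*Ddit3* (ENSMUSG00000025408, chromosome 10 from 127290774 to 127296288) encodes CHOP, a factor downstream of ATF4 that promotes cell death under lasting ER stress. Its level was 15.5, 28.4 and 33.7 TPM under HFD against 15.1, 16.7 and 17.6 TPM under LFD. HFD replicates 2 and 3 were above all others, and HFD replicate 1 lay among the LFD-fed mice in TPM. The rounded counts were 249 to 430 under HFD and 152 to 189 under LFD. edgeR put the log2 difference at 0.82 with a standard error of 0.28 (adjusted p = 0.377), and at 0.69 to 1.07 with a mouse left out. *Ddit3* overlaps *Mars*, a tRNA synthetase gene on the other strand with 771 to 1140 counts per mouse and a log2 fold change of -0.34; whether the counting used strand is not given in the sources used here.

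*Trib3* (ENSMUSG00000032715, chromosome 2 from 152337422 to 152344032) encodes a pseudokinase that ATF4 and CHOP switch on and that restrains AKT. The level was 1.19, 3.02 and 3.91 TPM under HFD against 1.56, 1.51 and 2.29 TPM under LFD, on 37 to 124 counts per mouse. HFD replicate 1 was the lowest of all 6 mice in TPM. In log2 CPM that mouse (1.56) was below LFD replicate 1 (1.83) and above LFD replicates 2 (1.04) and 3 (0.93). By edgeR the HFD-fed mice differed by 0.75 on the log2 scale with a standard error of 0.42 (adjusted p = 0.612).

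*Asns* (ENSMUSG00000029752, chromosome 6 from 7675169 to 7693254) encodes asparagine synthetase, the best known amino acid response gene. The level was 24.6, 43.3 and 31.1 TPM under HFD against 67.4, 61.9 and 38.7 TPM under LFD. In TPM, LFD replicate 3 lay among the HFD-fed mice. In log2 CPM it (4.81) was below all of the HFD-fed mice (5.03 to 5.39). edgeR gave -0.70 on the log2 scale with a standard error of 0.44 (adjusted p = 0.664). LFD replicate 1 decided much of this value, which was -0.18 without it and -1.05 without LFD replicate 3.

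*Sesn2* (ENSMUSG00000028893, chromosome 4 from 132492032 to 132510501) encodes a leucine sensor that holds back mTORC1. The level was 5.56, 7.15 and 7.56 TPM under HFD against 4.01, 5.20 and 5.66 TPM under LFD. The groups met only at HFD replicate 1 and LFD replicate 3 in TPM. It varied little within a diet, with a log2 CPM of 4.35 ± 0.19 under HFD and 3.67 ± 0.25 under LFD (SD, n = 3 each). The estimate of edgeR was 0.67 on the log2 scale with a standard error of 0.24 (adjusted p = 0.393). *Sesn2* overlaps *Gm12981*, which had 1 to 9 counts per mouse.

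*Chac1* (ENSMUSG00000027313, chromosome 2 from 119351229 to 119354381) encodes an enzyme that breaks down glutathione, and is a target of ATF4 and CHOP in the textbook pathway. The level was 0.58, 0.60 and 0.92 TPM under HFD against 4.58, 12.0 and 2.57 TPM under LFD. The 3 HFD-fed mice were close to each other and below the lowest LFD-fed mouse on both scales. The counts were 20, 15 and 25 under HFD and 127, 261 and 48 under LFD, so the HFD values rest on few reads. edgeR estimated -2.96 on the log2 scale with a standard error of 0.65 (adjusted p = 0.190), a level 7.79-fold higher in LFD-fed mice, and 254 of the 17668 tested genes had a more negative value. Without LFD replicate 3 the edgeR adjusted p was 0.0318, at -3.39, and without LFD replicate 2 it was 0.499, at -2.42. DESeq2 gave an adjusted p of 0.000635. The fold change was opposite in sign to those of *Atf4*, *Ddit3* and *Trib3*. LFD replicate 2, the mouse with the most *Chac1*, was also the one with the most muscle transcripts, and LFD replicate 3 the LFD-fed mouse with the fewest of both. Under HFD the orders differed, since replicate 3 had the fewest muscle transcripts (43.6 TPM) and the most *Chac1* (0.92 TPM), and replicate 2 had the most muscle transcripts (433 TPM) with *Chac1* at 0.60 TPM. All 20 muscle markers had a negative fold change, and none was listed at 0 in any mouse. For 19 of the 20, every HFD-fed mouse was below every LFD-fed mouse in log2 CPM, beside 9.23% of all tested genes. DESeq2 called 19 of the 20, beside 2.06% of the genes for which it gave an adjusted p. The part of the muscle markers in the difference of *Chac1* was not tested.

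*Gdf15* (ENSMUSG00000038508, chromosome 8 from 70629393 to 70632456) encodes a secreted hormone that lowers food intake through a receptor in the hindbrain. The level was 3.08, 6.51 and 13.7 TPM under HFD against 0.04, 0.72 and 3.23 TPM under LFD. LFD replicate 3 was just above HFD replicate 1 in TPM, while in log2 CPM each HFD-fed mouse (2.49 to 3.79) was above each LFD-fed mouse (-2.60 to 1.503). The counts were 97, 144 and 322 under HFD and 1, 13 and 56 under LFD, and a single count has a 95% Poisson interval of 0.0253 to 5.57, for counting error only. edgeR estimated 2.91 on the log2 scale with a standard error of 1.03 (adjusted p = 0.397), with 64 of the tested genes above it. It was 2.36 without LFD replicate 1 and 4.58 without LFD replicate 3. Macrophages can express *Gdf15*. The 12 macrophage markers summed to 1999, 2514 and 4149.5 TPM under HFD and 638, 2752 and 4615 TPM under LFD, and none was listed at 0. *Lyz2* gave the most to this sum. Of the 12, 9 had a positive and 3 a negative fold change. The HFD-fed mice were all above the LFD-fed mice in log2 CPM for 3 of the 12, beside 6.72% of all tested genes, and all below for 0, beside 9.23%. Within each diet the sum and *Gdf15* put the mice in the same order in TPM. Across the diets they did not, since LFD replicate 3 had the highest sum but less *Gdf15* than HFD replicates 2 and 3. The part of the macrophage markers was not tested.

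**Figure D3:**
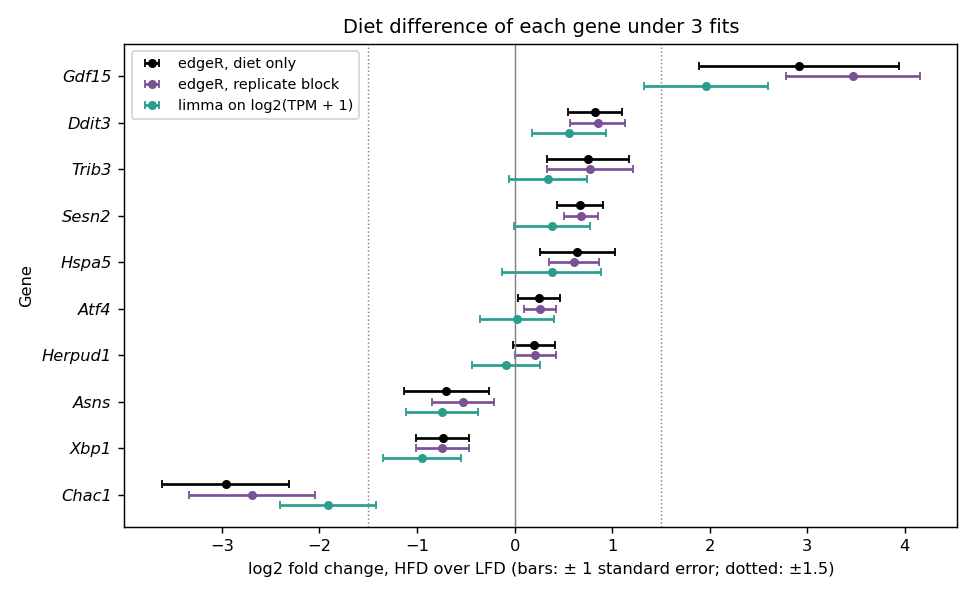
Log2 fold change (HFD over LFD) of the 10 genes by edgeR (black), by edgeR with a block for the replicate number (purple) and by limma on log2(TPM + 1) (green); bars are 1 standard error and dotted lines stand at 1.5 in either direction. *Chac1* (-2.96) and *Gdf15* (2.91) lie outside the dotted lines in all 3 fits, and *Herpud1* is the gene whose sign turns, to -0.09 on the TPM scale.

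The levels relative to *Atf4* within a mouse do not depend on the scaling between mice. On the log2 scale of TPM ratios, *Chac1* lay at -6.63 ± 0.22 under HFD and -3.67 ± 1.46 under LFD (SD, n = 3 each), and *Xbp1* at 0.32 ± 0.21 and 1.305 ± 0.47. For both, all HFD-fed mice were below all LFD-fed mice, which is 2 of the other 9 genes against 16.1% of the genes for which the ratio could be formed. *Sesn2* (-3.33 ± 0.17 and -3.76 ± 0.32) and *Gdf15* (-3.38 ± 0.69 and -7.19 ± 2.71) lay above without overlap, 2 of 9 against 2.7%. *Ddit3*, *Hspa5*, *Trib3*, *Asns* and *Herpud1* overlapped.

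**Figure D4:**
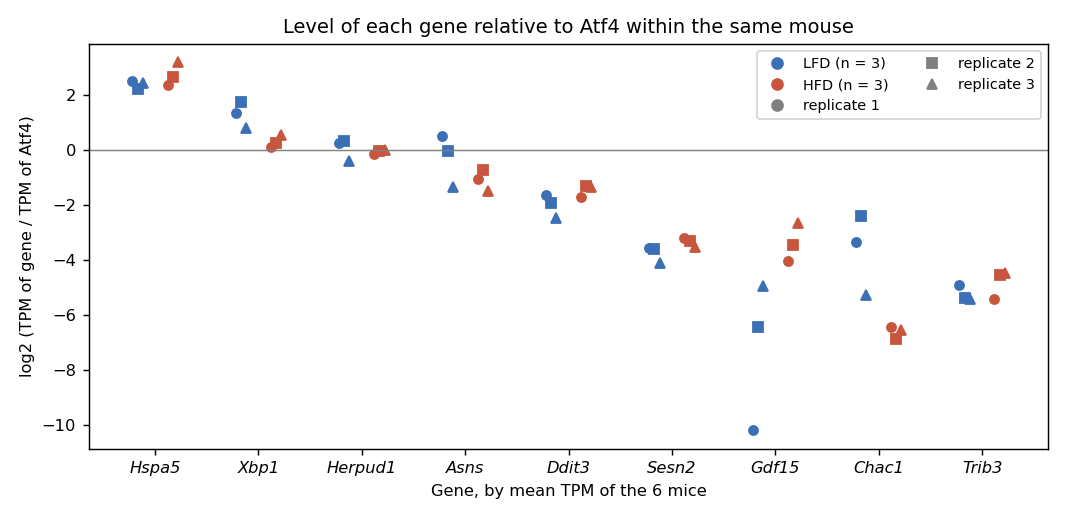
Log2 ratio of TPM of each gene to TPM of *Atf4* in the same mouse, LFD in blue and HFD in red, with shapes for the replicate number. The diets are apart for *Xbp1*, *Sesn2*, *Gdf15* and *Chac1*, with *Chac1* at -6.88 to -6.45 under HFD and -5.26 to -2.39 under LFD.

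The wider pathway was described by 9 lists with 140 tested genes. edgeR's quasi-likelihood test called 0 of them, and 12 had an unadjusted p under 0.05, which is 8.57% beside 10.5% of all tested genes. DESeq2 called 1, *Atf3*, which is 0.714% beside 2.06%. The HFD-fed mice were all above the LFD-fed mice in log2 CPM for 9 genes and all below for 9, which is 6.43% each, near the 6.72% and 9.23% of all tested genes. The log2 fold change was positive for 58 and negative for 82 of them, with a median of -0.07. 3 genes, *Atf3*, *Dnajc3* and *Ppp1r15a*, stood in 2 lists each.

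Among the sensors and the eIF2 machinery, 8 of 18 genes had a positive and 10 a negative fold change, and 0 had an unadjusted p under 0.05. The values lay in a narrow range, from -0.35 for *Eif2b1* and -0.27 for *Eif2b2*, subunits of the exchange factor of eIF2, to 0.29 for *Atf6* and 0.56 for *Eif2ak2*, the kinase that senses double-stranded RNA. The transcription factors beside ATF4 had a median of -0.20 over 12 genes. *Atf3*, an early stress factor, was at 19.5, 55.3 and 82.0 TPM under HFD and 0.98, 13.6 and 14.4 TPM under LFD, without overlap. Its log2 fold change was 2.88 with a standard error of 0.69, at an adjusted p of 0.215 in edgeR and 0.000923 in DESeq2. In edgeR with the replicate block it was 3.09 at an adjusted p of 0.0403, a fit in which 1.04% of all tested genes were under 0.05. The block was chosen from these same data, so this p is no independent support. *Cebpb* had 0.64, *Cebpd* -0.87 and *Creb3l1* -0.67. *Creb3l1* was at 6.53, 6.15 and 8.12 TPM under HFD and 3.10, 9.29 and 34.7 TPM under LFD, so LFD replicate 3 stood far above the rest.

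The amino acid genes that ATF4 is known to switch on were the list with the most negative median, -0.44 over 21 genes, 8 of them positive and 13 negative. At an unadjusted p under 0.05 there were 5, all negative, where 6.62% of all tested genes were negative at that p. The lowest values were those of *Gpt2*, an alanine aminotransferase, with -2.71, and *Cth*, which makes cysteine, with -2.34. The highest were 0.54 for *Slc7a11*, the cystine transporter, and 0.77 for *Mthfd2*, a folate enzyme of the mitochondria. *Gpt2* was at 17.8, 10.4 and 9.71 TPM under HFD and 127, 122 and 26.4 TPM under LFD, but overlapped in log2 CPM. Of the tRNA charging genes, 2 were positive and 11 negative, from -0.34 for *Mars* and -0.30 for *Eprs* to 0.02 for *Nars* and 0.31 for *Wars*. The stress and secreted targets of ATF4 ranged from -2.09 for *Stc2* and -0.67 for *Eif4ebp1* to 0.80 for *Cdkn1a* and 2.88 for *Atf3*. *Fgf21* had too few counts to be tested.

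The ER chaperones and folding enzymes had 15 positive and 4 negative fold changes among 19 genes, with a median of 0.13. *Sdf2l1*, a partner of the BiP system, was highest with 1.38 (edgeR adjusted p = 0.410) and no overlap in log2 CPM, followed by *Ero1l*, an oxidase of disulfide formation, with 0.67. The lowest were *Dnajb9* with -0.40 and *P4hb* with -0.31. In ER-associated degradation, 3 of 15 genes were positive and 12 negative, from -0.73 for *Derl1* and -0.50 for *Erlec1* to 0.20 for *Edem1* and 0.44 for *Derl3*. In translocation and secretory traffic 5 of 20 were positive and 15 negative, from -0.48 for *Kdelr3* and -0.40 for *Kdelr2* to 0.18 for *Sec23b* and 0.46 for *Sec11c*. *Kdelr3*, *Kdelr2* and *P4hb* were each highest in LFD replicate 3, at 96.7, 204 and 1155 TPM. Their highest HFD values were 23.4, 73.4 and 482 TPM. *Kdelr3* was at 4.08 and 17.4 TPM in LFD replicates 1 and 2, and its log2 fold change was 0.26 with the replicate block. Of the mitochondrial stress genes, 10 of 12 were positive, from -0.51 for *Oma1* and -0.07 for *Yme1l1* to 0.69 for *Chchd10* and 0.90 for *Dnaja3*, and 0 had an unadjusted p under 0.05.

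**Figure D5:**
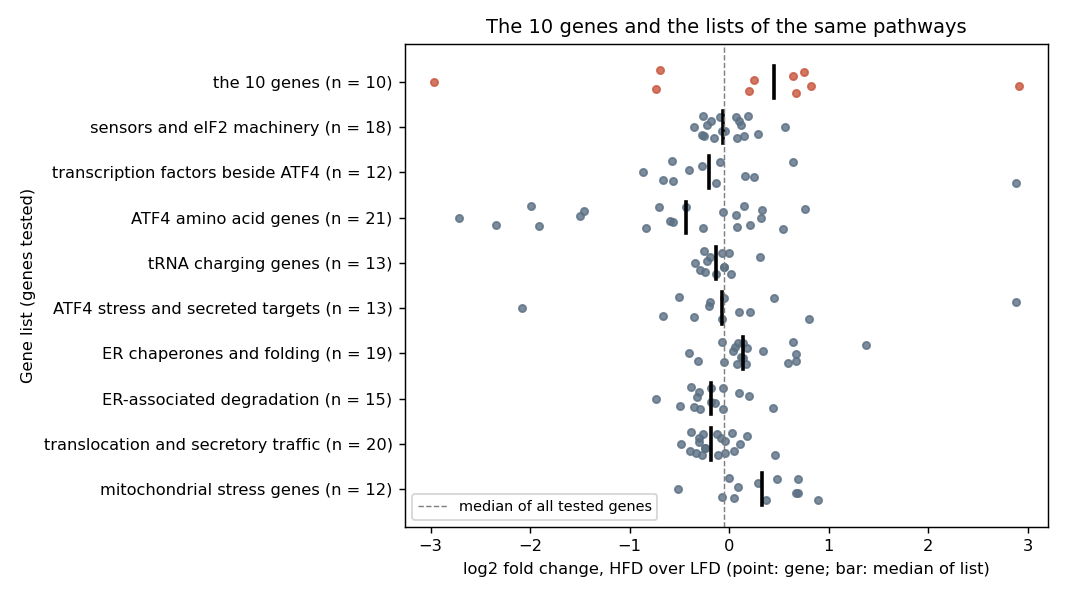
Log2 fold change (HFD over LFD) of each tested gene, for the 10 genes (red) and the 9 lists (grey); the black bar is the median of a list and the dashed line that of all tested genes. The 10 genes span -2.96 to 2.91 around a median of 0.45, and the 13 tRNA charging genes span -0.34 to 0.31.

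Within the lists, the genes at the smallest distance from each of the 10 were found. The distance was the root mean square difference of log2 CPM over the 6 mice, each gene taken relative to its own mean. *Hspa5* was closest to *Creld2* (0.21) and *Manf* (0.21), both of them ER proteins, and *Atf4* to *Edem1* (0.08) and *Nars* (0.12). *Ddit3* and *Trib3* had the same neighbours, *Ero1l* (0.21 and 0.20) and *Wars* (0.25 and 0.25). *Xbp1* was closest to *Syvn1* (0.21), *Asns* to *Eif4ebp1* (0.18), *Herpud1* to *Atf6* (0.10) and *Sesn2* to *Sec11c* (0.19). The nearest genes lay farther from *Chac1* and *Gdf15*, with *Gpt2* at 0.64 and *Stc2* at 0.75 from *Chac1* and *Atf3* at 0.66 from *Gdf15*. The genes were not scaled to the same spread, so the distance also grows with the size of a gene's changes. It cannot part a different pattern from a larger change. Small distances between genes that varied little, such as *Atf4* and *Edem1*, are likewise no evidence of a shared pattern.

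RSEM also gives each gene a length, the mean of its transcript lengths weighted by their estimated abundance, which moves with the mix of transcripts. Of the 7 genes with several annotated transcripts, 2 (*Ddit3* and *Herpud1*) were longer in each HFD-fed mouse than in any mouse on LFD, where 5.3% of the tested genes with several transcripts were, and 0 were shorter, where 5.93% were. The length of *Ddit3* was 810, 808 and 809 bases under HFD and 779, 792 and 795 bases under LFD. For *Herpud1* it was 1084, 1166 and 1138 bases under HFD and 1061, 1077 and 1082 bases under LFD, so that HFD replicate 1 and LFD replicate 3 nearly met. *Xbp1* overlapped, with 1647 to 1659 bases under HFD and 1638 to 1692 bases under LFD.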

How the data were processed

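Total RNA of BAT from 6 mice, 3 per diet, was sequenced in single-end reads after ribosomal RNA removal. Per the labels and the paper's methods, the authors trimmed reads with Trimmomatic 0.36 and quantified them with RSEM 1.3.0 on GRCm38.p4. The authors deposited an expected count per gene, which shares reads that match several genes, and a TPM value, which divides by effective length and scales to a fixed total per mouse. The deposited posterior mean and SD of the count give the doubt from shared reads as an expected count, and the SD was 0 in every mouse for the 10 genes.

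Expected counts were rounded and tested with edgeR 4.0.16 in R 4.3.3 (quasi-likelihood, TMM, filterByExpr, Benjamini-Hochberg over 17668 genes), with the study's thresholds of 0.01 and 1.5. The study itself used these thresholds with DESeq2, and reported differentially expressed genes in both directions. The standard error was taken from the fold change and the F statistic. Log2 CPM used a prior count of 2. Alternatives used DESeq2 1.42.0, limma 3.58.1 on log2(TPM + 1) and log2(TPM + 0.1), other filters and scalings, the replicate number as a block, and each mouse left out. The fit was tested on simulated data. Libraries of a diet were compared with a chi-square test of their counts, which came to 71.7 to 558 per degree of freedom, so none was a repeat. Same-numbered mice deviated together across genes (r of 0.498, 0.229 and 0.522), the pairing used for the block; the labels do not say what a number marks. Positions are those of GENCODE M21 (GRCm38). The 10 genes and the lists were chosen with earlier results of these data known. Named beside the 10 genes are the 2 highest and 2 lowest of each list and the 3 genes that stand in several lists. So are the 2 closest by root mean square difference. Overlapping genes of the annotation are named too. *Ucp1*, *Fabp4* and *Lyz2* were chosen after their values were seen.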

Additional observations from a re-analysis of the deposited data

How the results depend on the processing

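edgeR called 0 of the 10 genes and 0 of the 140 pathway genes with RLE size factors, with no filter or a minimum of 10 counts in every mouse, at an adjusted p under 0.05 with no fold threshold, without mitochondrially encoded genes and without any single mouse (0 to 0). DESeq2 called 412 genes in all, 1 of the 10 (*Chac1*) and 1 of the pathway genes (*Atf3*); the cause was not tested. In the fit with a replicate block, which rests on the pairing by number, edgeR called 0 of all genes, 0 of the 10 and 0 of the pathway genes, with adjusted p-values of 0.104 to 0.659 for the 10, so the block changed no call. The genes whose diets did not overlap numbered 6 in log2 CPM, beside 15.9% of all tested genes. In TPM as deposited the count was 1, where 1.65% of all tested genes were above and 11.6% below. As a ratio to *Atf4*, chosen after seeing the data, it was 4 of 9, where 2.7% of genes were above and 16.1% below. It was 5 without mitochondrially encoded genes and 6 to 8 without a mouse, settings whose share over all genes was not computed. With a mouse left out fewer values can overlap, so 6 to 8 cannot be set beside the other counts. *Herpud1*, at 0.20 in edgeR, was -0.093 on log2(TPM + 1) and -0.0945 on log2(TPM + 0.1), scales on which the median of all genes was -0.18 and -0.22. All 10 genes kept their sign without any single mouse. The minimum of 10 counts in every mouse removed *Gdf15*, which had 1 count in LFD replicate 1, and low counts limit *Chac1* and *Trib3* as well.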
